A study of Homo sapiens with 16 samples.

Results

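STC1 and STC2 encode stanniocalcin-1 and stanniocalcin-2, the mammalian forms of a secreted glycoprotein hormone first known from fish, and are described here in 2 cancer cell lines, ECC-1 from endometrium and T-47D from breast. They are 2 of the 21453 gene symbols in the tables, each with 1 of the 32062 RefSeq transcripts. The genes were chosen by a measured value, the rise of STC2 with estradiol in T-47D, and STC1 came with it as the other gene of the family. STC2 in T-47D against the DMSO libraries is therefore given as a description, without a test. So are its difference between the lines in DMSO and the differences between its responses in the lines, since all of these rest on the same T-47D control libraries. The responses of STC2 in ECC-1, the contrast of genistein with BPA, and all contrasts of STC1 do not use the choosing contrast of STC2 and were tested. Their spread was estimated over all 16 libraries, those of the choosing contrast included.

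Stanniocalcins in fish act on calcium balance, and in mammals they are made by many tissues and act mostly near the cells that release them. Both human proteins bind and inhibit the pregnancy-associated plasma proteins PAPP-A and PAPP-A2, proteases that cleave insulin-like growth factor (IGF) binding proteins such as IGFBP4 and so free the growth factor. STC2 is known as an estrogen-responsive gene of breast cancer cells that carry estrogen receptor alpha, and also as a gene raised by endoplasmic reticulum stress and low oxygen. STC1 is likewise known to respond to low oxygen.

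All cells were kept for 5 days on RPMI-1640 without phenol red, with 10% serum stripped of hormones by charcoal and dextran. Each line then received 0.02% DMSO as the vehicle control, 10 nM 17β-estradiol, 100 nM bisphenol A (BPA, a plastics monomer) or 100 nM genistein (a soy isoflavone) for 8 h. Polyadenylated RNA gave 2 libraries for each of the 8 groups (line by treatment), 16 libraries in total. The series as a whole asks where estrogen receptor alpha binds after these compounds, and the RNA libraries ask which transcripts change. Each tissue is represented by 1 cell line, and since the labels name no separate cultures for the 2 libraries of a group, p-values here reflect only how far these libraries spread.

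The tables hold no counts, and the spacing of low values put the depth at 17.3 to 29.4 M reads a library. Values are RPKM (reads per kilobase of transcript and per M reads), scaled between libraries. The first estradiol library stood apart from its line in both lines, with a median correlation across genes of 0.9873 (ECC-1) and 0.9801 (T-47D), where the remaining 14 libraries reached 0.9893 to 0.9966. The line labels were checked with marker genes. The 5 luminal breast markers (GATA3, FOXA1, SPDEF, TRPS1, XBP1) summed to 1126 to 1534 scaled RPKM in T-47D libraries and 117 to 133 in ECC-1 libraries, where XBP1 made up nearly all of the sum and the other 4 held 5.31 to 7.44. The 5 Mullerian and endometrial markers (PAX8, MSX1, EMX2, SOX17, HOXA10) summed to 328 to 372 in ECC-1 and 0.439 to 0.745 in T-47D. Of the other cell types, 5 leukocyte markers summed to at most 2.16, and 6 fibroblast markers to 9.42 to 15.5 in ECC-1 and 16.9 to 31.8 in T-47D, nearly all of it COL1A1. The 5 endothelial markers summed to 1.13 to 1.88 in ECC-1. In T-47D they summed to 1.33 in the second BPA library and 0.0950 to 0.232 in the other 7, and the 5 fibroblast markers besides COL1A1 also stood highest in that library (3.05, against 1.28 to 2.24). None of the markers was listed at 0 in all 8 libraries of a line, and their part in the stanniocalcin values was not tested.

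STC2 was present in every library and was higher in T-47D than in ECC-1 under every treatment. In ECC-1 it stood at 7.52 and 7.72 scaled RPKM in the first and second DMSO library. With BPA the ECC-1 libraries held 9.93 and 9.27, with genistein 11.4 and 11.3, and with estradiol 12.0 and 11.3. The treated ECC-1 libraries thus all lay above both controls, and the genistein and estradiol libraries overlapped. In T-47D the DMSO libraries held 28.5 and 20.1 scaled RPKM and the BPA libraries 25.4 and 42.3. The genistein libraries held 77.6 and 94.1, and the estradiol libraries 133 and 126. Both genistein libraries and both estradiol libraries lay above every control and BPA library of T-47D, whereas the first BPA library fell between the 2 controls. Each STC2 value rested on an estimated 857 to 1481 reads in ECC-1 and 1849 to 17010 in T-47D, by depth and transcript length. The exact Poisson 95% intervals of the 2 STC2 libraries overlapped in every ECC-1 group and in no T-47D group.

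STC1 was far lower than STC2 in every library. In ECC-1 the DMSO libraries held 0.145 and 0.118 scaled RPKM, the BPA libraries 0.247 and 0.0606, the genistein libraries 0.162 and 0.0861, and the estradiol libraries 0.125 and 0.150. These ECC-1 values rested on an estimated 7 to 22 reads, and the groups overlapped. In T-47D the DMSO libraries held 1.05 and 0.420, and the BPA libraries 0.935 and 0.486. The genistein libraries of T-47D held 2.08 and 1.30 scaled RPKM, on 159 and 87 estimated reads. The estradiol libraries held 1.10 and 3.25, on 102 and 252 reads. Both genistein and both estradiol libraries lay above both controls, as in 17.9% and 16.9% of all genes. The first estradiol library, however, stood only just above the first DMSO library. On the scale per kilobase, the level of STC2 exceeded that of STC1 by 40.3 to 153 times in ECC-1 libraries (median 72.9) and by 27 to 121 times in T-47D libraries (median 43.3).

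**Figure D1:**
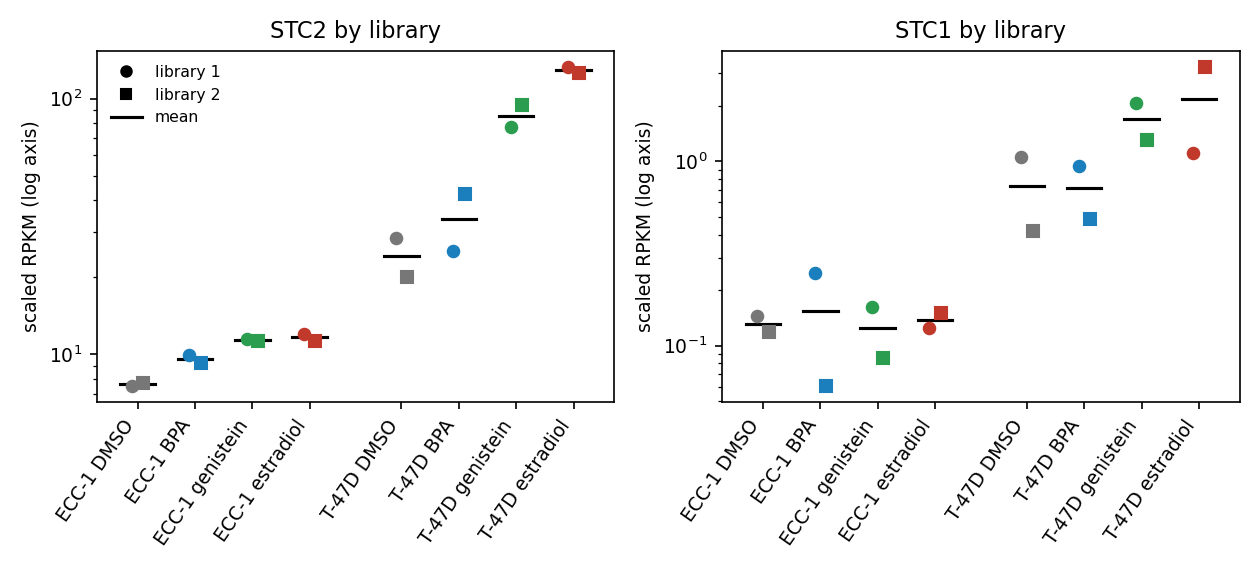
Scaled RPKM of STC2 (left) and STC1 (right) in each library on a log axis, by line and treatment, with circles for the first library, squares for the second and bars for the mean of n = 2. STC2 stands at 7.52 to 12.0 in ECC-1 and 20.1 to 133 in T-47D, with genistein and estradiol above control and BPA in T-47D, while the STC1 libraries of a group lie up to 4.07 times apart.

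In T-47D the 2 STC1 libraries of a group lay further apart than counting error. The higher T-47D library of STC1 exceeded the lower 2.51 times in DMSO, 1.93 times with BPA, 1.60 times with genistein and 2.94 times with estradiol. Exact Poisson 95% intervals, which cover counting error only, ran from 0.860 to 1.28 scaled RPKM for STC1 in the first T-47D DMSO library and from 0.279 to 0.607 in the second. For STC1 with estradiol they ran from 0.900 to 1.34 in the first T-47D library and from 2.86 to 3.68 in the second, so the 2 intervals of each group did not meet. The STC1 intervals did not meet in the other T-47D groups or with BPA in ECC-1 either. For STC2 the higher library exceeded the lower 1.01 to 1.07 times in the ECC-1 groups. In T-47D it did so 1.42 times in DMSO, 1.67 times with BPA, 1.21 times with genistein and 1.06 times with estradiol.

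**Figure D2:**
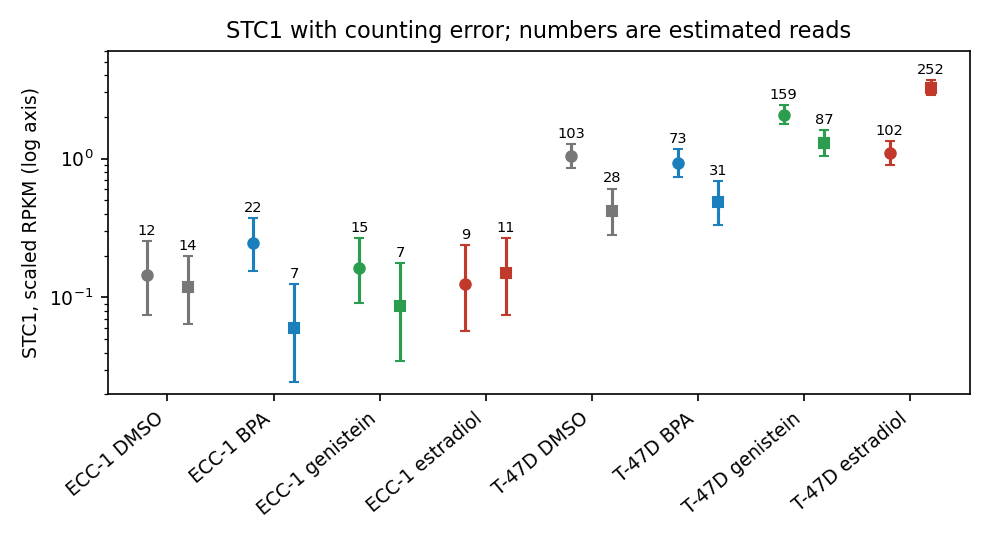
STC1 in scaled RPKM on a log axis in each library, with bars for the exact Poisson 95% interval of counting error and the estimated number of reads above each point (circles first library, squares second). ECC-1 libraries rest on 7 to 22 reads and T-47D libraries on 28 to 252, and the 2 estradiol libraries of T-47D stand at 1.10 and 3.25.

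The order of STC2 levels ran from ECC-1 in DMSO (7.62 ± 0.140 scaled RPKM, SD, n = 2) through BPA (9.60 ± 0.467), genistein (11.4 ± 0.104) and estradiol (11.7 ± 0.522). It went on with T-47D in DMSO (24.3 ± 5.94), BPA (33.8 ± 11.9), genistein (85.8 ± 11.7) and estradiol (129.7 ± 5.27). Of these neighbours, ECC-1 genistein and estradiol overlapped, as did T-47D DMSO and BPA, and the other neighbours did not overlap. In ECC-1, 15.3% of all genes were so separated with BPA above DMSO and 14.8% with genistein above BPA. In T-47D, 15.6% were with genistein above BPA. No share was computed for the other separated neighbours, so this order is a description. STC1 had another order in ECC-1, with group means of 0.124 ± 0.0539 with genistein, 0.132 ± 0.0193 in DMSO, 0.137 ± 0.0173 with estradiol and 0.154 ± 0.132 with BPA, no neighbours of which were separated. In T-47D the STC1 means were 0.711 ± 0.318 with BPA, 0.737 ± 0.448 in DMSO, 1.69 ± 0.552 with genistein and 2.18 ± 1.52 with estradiol. Of these, genistein stood clear of DMSO, as in 17.9% of all genes, whereas BPA overlapped DMSO and estradiol overlapped genistein.

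Both genes stood higher in T-47D than in ECC-1. The lowest T-47D library exceeded the highest ECC-1 library for both STC1 (0.420 against 0.247 scaled RPKM) and STC2 (20.1 against 12.0). Of all 13827 genes tested, 34.9% were as fully separated in that direction, so this is a common pattern between the lines. In the DMSO libraries alone, STC2 was 3.18 times as high in T-47D by the ratio of means, a log2 difference of 1.59 (SE 0.196) on log2(scaled RPKM + 0.5), given without a test. STC1 was 5.60 times as high by the ratio of means, and its log2 difference was 0.92 (95% interval 0.22 to 1.62, adjusted p = 0.0192, limma with Benjamini-Hochberg adjustment over all genes). The added 0.5 exceeds the ECC-1 level of STC1 and holds its log2 difference down, which was 1.74 with 0.1 added and 0.59 with 1 added. The call on STC1 ended without the first T-47D DMSO library (0.54, adjusted p = 0.212), the first ECC-1 DMSO library (0.95, adjusted p = 0.0562) or the second ECC-1 DMSO library (0.89, adjusted p = 0.072). In this comparison 76.7% of all genes were called. In bulk RNA, fewer cells that make a transcript and less of it per cell cannot be told apart.

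STC2 was measured higher in both ECC-1 libraries with 10 nM estradiol than in both controls, but the difference did not pass the test over all genes. STC2 was 1.53 times as high as in DMSO by the ratio of means, or 0.58 on the log2 scale (95% interval 0.16 to 1.00, limma adjusted p = 0.178). This contrast called 1.89% of all genes, and in 21.7% both estradiol libraries lay above both controls, as they did for STC2. The fit over both lines gave STC2 the same spread in each, although its replicates lay closer in ECC-1. In a fit on ECC-1 alone the same log2 difference of STC2 had an SE of 0.093 in place of 0.196 and passed the test (limma adjusted p = 0.0426). STC1 with estradiol in ECC-1 differed from DMSO by 0.01 (log2, 95% interval -0.69 to 0.72, adjusted p = 0.995). Since the added 0.5 exceeds the ECC-1 level of STC1, this interval bounds its fold change only loosely.

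Genistein at 100 nM put STC2 in ECC-1 at a log2 difference of 0.55 from DMSO (95% interval 0.13 to 0.96, limma adjusted p = 0.373), 1.49 times the DMSO mean. The contrast called 0.969% of genes, and in 21.9% both genistein libraries lay above both controls, as for STC2. With libraries weighted by their quality the STC2 difference passed (limma adjusted p = 0.0433), and in a fit on ECC-1 alone it did not (adjusted p = 0.0715). BPA at 100 nM gave 0.31 for STC2 (95% interval -0.10 to 0.73, adjusted p = 1), 1.26 times the DMSO mean. BPA called 0.195% of genes in ECC-1, and both BPA libraries lay above both controls in 15.3% of genes, STC2 among them. STC1 in ECC-1 had a log2 difference of -0.02 with genistein (95% interval -0.72 to 0.68, adjusted p = 1) and 0.03 with BPA (-0.67 to 0.74, adjusted p = 1). The SE behind these STC1 intervals was 0.330 in the fit over both lines and 0.131 in a fit on ECC-1 alone. STC1 in ECC-1 rested on 7 to 22 reads a library and lay below the added 0.5. These intervals thus bound its fold change only loosely.

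In T-47D, STC2 stood 5.35 times as high with estradiol as in DMSO by the ratio of means. Its log2 difference was 2.42 (SE 0.196), which ranked STC2 in place 7 of the 13827 genes. This is the value that chose the gene, and the contrast called 3.22% of all genes, with both estradiol libraries above both controls in 16.9%. With genistein STC2 stood 3.54 times as high, a log2 difference of 1.82 (SE 0.196) and place 8. Genistein called 0.803% of genes in T-47D and put both libraries above both controls in 17.9%. With BPA the STC2 mean was 1.39 times the DMSO mean, a log2 difference of 0.45 (SE 0.196). The BPA libraries and the controls overlapped for STC2, and the difference ran from 0.09 without the second BPA library to 0.81 without the first. The second BPA library, which has the higher STC2 value, is also the T-47D library in which the endothelial markers summed to 1.33 in place of 0.172 in the first, and their part in the STC2 value was not tested. BPA called 0 genes in T-47D in limma, that is 0%, with 116 genes at an unadjusted p under 0.05, and in 10.5% of genes both BPA libraries lay above both controls. Estradiol was given at 10 nM and the compounds at 100 nM, so its value is set beside theirs and not compared with them.

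STC1 in T-47D was 2.95 times as high with estradiol as in DMSO by the ratio of means, or 1.04 on the log2 scale (95% interval 0.33 to 1.74, limma adjusted p = 0.125), and did not pass the test. The library that stood apart from its line was the one with the lower STC1 value. Without that first estradiol library the log2 difference of STC1 was 1.65 and passed (adjusted p = 0.0102), and without the second it was 0.42 (adjusted p = 0.337). With 1 library left in a group, the fit assumes that it varies like the other groups, so the gap between 1.10 and 3.25 no longer enters the spread. Leaving out both first estradiol libraries, chosen after seeing the data, gave 1.65 for STC1 (adjusted p = 0.00958). With genistein STC1 was 2.29 times as high as in DMSO, or 0.85 on the log2 scale (95% interval 0.14 to 1.55, adjusted p = 0.568). With BPA the log2 difference of STC1 was -0.01 (95% interval -0.71 to 0.70, adjusted p = 1). The STC1 and STC2 contrasts in a line share the same DMSO libraries.

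**Figure D3:**
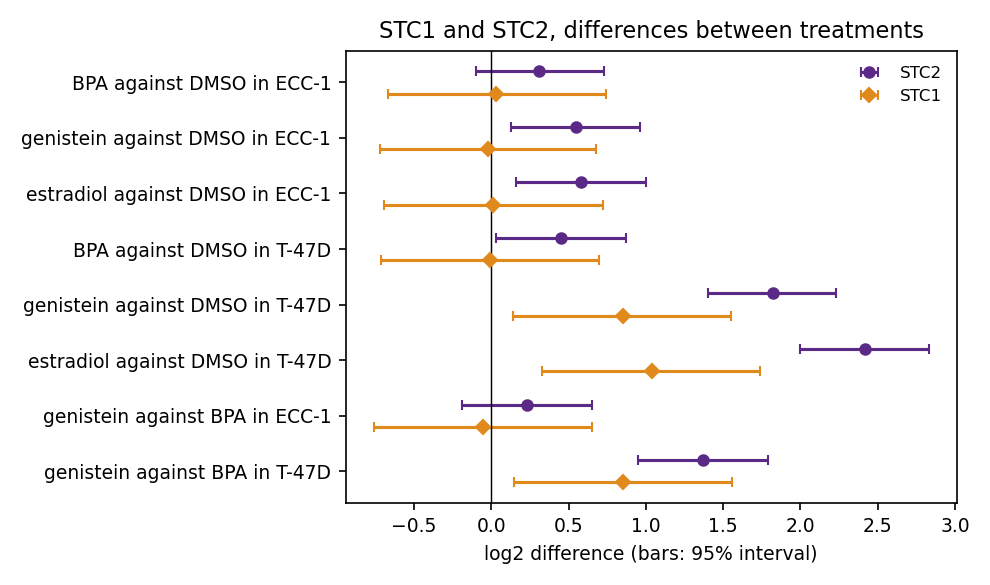
Log2 differences of STC2 (circles) and STC1 (diamonds) on log2(scaled RPKM + 0.5) for each treatment against DMSO and for genistein against BPA in each line, with bars for the 95% interval of the limma fit. STC2 lies at 0.31 to 0.58 in ECC-1 and at 0.45, 1.82 and 2.42 with BPA, genistein and estradiol in T-47D, where its values against DMSO are a description, and the STC1 intervals are wider.

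Genistein and BPA were the only compounds given at the same dose and time, which allowed 4 comparisons, 1 for each gene in each line. In T-47D, STC2 was 2.54 times as high with genistein as with BPA by the ratio of means, or 1.37 on the log2 scale (95% interval 0.95 to 1.79, limma adjusted p = 0.0045). This comparison shares no library with the one that chose the gene, but its spread was estimated over all 16 libraries. The SE was 0.196, and 0.254 in a fit on T-47D alone. The comparison called 0.405% of all genes, and in 15.6% both genistein libraries lay above both BPA libraries, as for STC2. Without the second BPA library the STC2 difference was 1.73 (adjusted p = 0.000974). The call on STC2 ended without the first BPA library (1.01, adjusted p = 0.0805), without the second genistein library (1.23, adjusted p = 0.0859) and in a fit on T-47D alone (1.37, adjusted p = 0.383). STC1 in T-47D was 2.37 times as high with genistein as with BPA, or 0.85 on the log2 scale (95% interval 0.15 to 1.56, adjusted p = 0.83), and did not pass. In ECC-1 the difference was 0.23 for STC2 (95% interval -0.19 to 0.65, adjusted p = 1) and -0.05 for STC1 (95% interval -0.76 to 0.65, adjusted p = 1). Of all genes, 0.0434% were called between genistein and BPA in ECC-1, and in 14.8% both genistein libraries lay above both BPA libraries, STC2 among them. These intervals leave room for differences between the compounds in ECC-1 and do not show that they act alike on either gene.

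The response of each gene in T-47D was set against its response in ECC-1. For STC2, as a description, the T-47D response minus the ECC-1 response was 1.84 on the log2 scale with estradiol (SE 0.277), 1.27 with genistein and 0.13 with BPA. For STC1 the same difference was tested and did not pass with estradiol (1.02, 95% interval 0.03 to 2.02, limma adjusted p = 0.29), genistein (0.87, -0.13 to 1.86, adjusted p = 1) or BPA (-0.04, -1.04 to 0.95, adjusted p = 1). These contrasts called 1.73% of all genes for estradiol, 0.586% for genistein and 0.0434% for BPA. Whether STC1 responds differently in the lines could thus not be settled at this spread.

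Across the 8 libraries of T-47D, the levels of STC1 and STC2 had a Pearson r of 0.703 on the log2 scale, and across those of ECC-1 an r of 0.059. These correlations are descriptions, since the libraries share treatments and the STC1 values in ECC-1 rest on few reads. Among 1070 genes that varied in T-47D, genes most like STC2 included FLT4 (r = 0.996), which encodes a receptor of vascular endothelial growth factors, TPBG (0.993), the gene of a membrane glycoprotein of trophoblast, FMN1 (0.990), a formin, and SUSD3 (0.990). FLT4 stood at 0.973 scaled RPKM in DMSO, 1.42 with BPA, 3.61 with genistein and 5.03 with estradiol as group means, the same order as STC2. Since the like genes were picked by r over these same libraries, a shared order comes with the choice. Among 511 genes in ECC-1, those most like STC2 were the chloride channel gene ANO1 (r = 0.997), ALPPL2 (0.995), DUSP2 (0.994), the interleukin 4 receptor gene IL4R (0.993) and the matrix metalloproteinase gene MMP17 (0.993). ALPPL2 is near-identical to other alkaline phosphatase genes, so its reads are uncertain. Like STC1 in T-47D were the transcription factor gene KLF10 (r = 0.959), the collagen lysyl hydroxylase gene PLOD2 (0.955), PEG10 (0.939), the growth factor gene AREG (0.936) and the semaphorin gene SEMA3C (0.932).

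**Figure D4:**
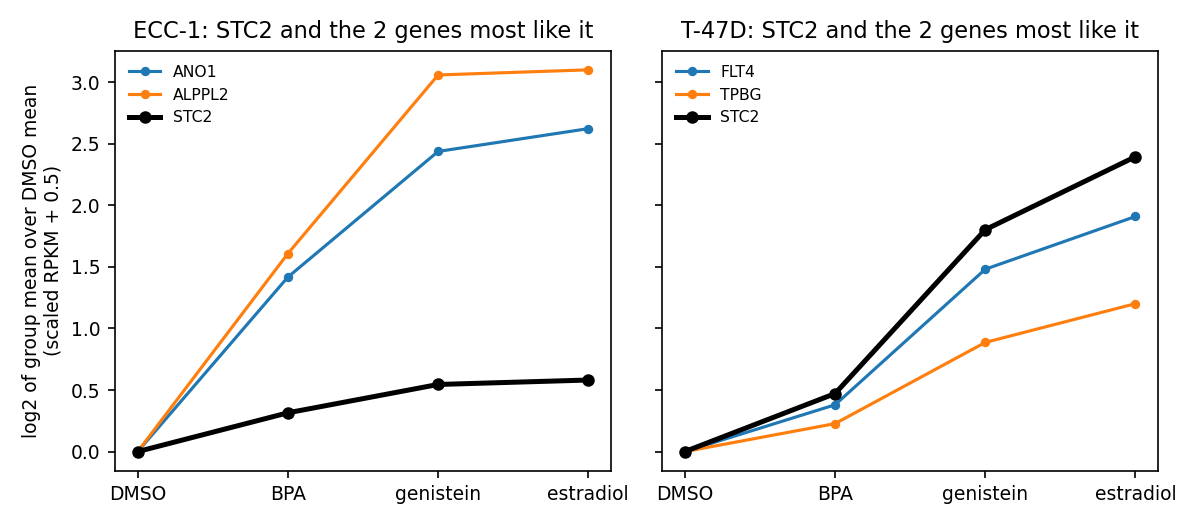
Log2 ratio of each group mean to the DMSO mean (scaled RPKM + 0.5) for STC2 (thick black) and the 2 genes with the highest Pearson r to it over 8 libraries, in ECC-1 (left) and T-47D (right), with lines joining the treatments for reading only. The like genes follow the order DMSO, BPA, genistein, estradiol in both lines, which comes with their choice by r over these same libraries. In ECC-1 they span larger changes than STC2.

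The proteases that stanniocalcins inhibit were barely expressed in either line. PAPPA stood at 0.0447 to 0.115 scaled RPKM in ECC-1 libraries and 0.213 to 0.393 in T-47D libraries, and PAPPA2 at 0.0124 or less in all libraries, so neither could be tested beside STC1 and STC2. IGFBP4, the binding protein gene whose product PAPP-A cleaves, was abundant in T-47D and low in ECC-1, a distribution between the lines with the same sign as those of STC1 and STC2. In T-47D, IGFBP4 stood at 88.0 and 90.3 in DMSO, 86.3 and 115 with BPA, 156 and 163 with genistein, and 231 and 216 with estradiol. IGFBP4 rose with estradiol in T-47D by 1.32 on the log2 scale (adjusted p = 3.33e-05). It also rose with genistein by 0.83 (adjusted p = 0.00456), which no longer passed without the first DMSO (0.82), second DMSO (0.85) or second genistein library (0.81) or on T-47D alone (adjusted p = 0.138), and it did not pass with BPA (0.16, adjusted p = 1). In ECC-1 IGFBP4 stood at 0.462 and 0.497 in DMSO, 0.739 and 0.616 with BPA, 0.939 and 1.11 with genistein, and 1.11 and 1.20 with estradiol. IGFBP4 in ECC-1 DMSO is below the added 0.5, which holds its log2 differences there down, so their size cannot be set against those in T-47D. It rose there with estradiol (0.76, limma adjusted p = 0.00584), which no longer passed without the first (0.73) or second DMSO library (0.78) and failed in 3 of 16 alternatives. It rose with genistein too (0.64, limma adjusted p = 0.033), which no longer passed without any 1 of the 4 libraries and failed in 5 of 16 alternatives. With BPA it did not pass (0.26, adjusted p = 1). Against BPA, genistein gave a higher IGFBP4 in T-47D (0.68, limma adjusted p = 0.0415), though the call failed in 7 of 16 alternatives. Among these were the fits without the first BPA (0.47), first genistein (0.71) or second genistein library (0.65). The ECC-1 difference of 0.37 did not pass (adjusted p = 1).

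Of the 16 genes of the PAPP-A and IGF axis, 11 were high enough to be tested. With estradiol in T-47D, 2 rose (IGFBP4 and IRS1) and 1 fell (IGFBP3), with a median log2 difference of 0.16 over the 11 against -0.01 over all genes, of which 3.22% were called. With estradiol in ECC-1, 1 rose (IGFBP4) and 1 fell (IGFBP3), with a median of 0.02 and 1.89% of all genes called, and the same counts held with genistein (0.969% of all genes). With genistein in T-47D 1 rose (0.803% of all genes). With BPA 0 passed in limma in either line, where 0.195% (ECC-1) and 0% (T-47D) of all genes were called. At an unadjusted limma p under 0.05 there was 1 in ECC-1 and 0 in T-47D. IGFBP3, the gene of the most abundant IGF carrier of blood, ran opposite to STC2 between the lines, with DMSO values of 544 and 714 in ECC-1 and 0.730 and 1.01 in T-47D. IGFBP3 lies near the added 0.5 in T-47D (means 0.867 in DMSO and 0.296 with estradiol), which holds its log2 differences there down. It fell by 0.78 with estradiol in T-47D (adjusted p = 0.00817), which no longer passed without the first estradiol (-0.65) or second DMSO library (-0.63), with weighted libraries (adjusted p = 0.215) or on T-47D alone (adjusted p = 0.0572). In ECC-1 it fell by 0.64 with estradiol (adjusted p = 0.0418), which no longer passed without either estradiol library (-0.75 and -0.53) or the second DMSO library (-0.44). With genistein in ECC-1 IGFBP3 fell by 0.70 (adjusted p = 0.0354), which no longer passed without the first (-0.65) or second genistein library (-0.76) or the second DMSO library (-0.51). Both ECC-1 calls on IGFBP3 also failed with quantile normalization (-0.28 with estradiol and -0.55 with genistein), and over all 16 alternatives the estradiol call failed in 10 and the genistein call in 8. IRS1, an adaptor gene of the IGF receptor, rose by 0.70 in T-47D with estradiol (adjusted p = 0.0478), which no longer passed without the first DMSO (0.58), second DMSO (0.81) or first estradiol library (0.62) and failed in 9 of 15 alternatives.

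Of the 16 genes of the unfolded protein and amino acid stress response, through which STC2 is known to be induced, 1 rose with estradiol in T-47D and 0 passed with genistein or BPA in T-47D or with any treatment in ECC-1. Of all genes, 3.22% were called with estradiol in T-47D and 0% to 1.89% in the other 5 contrasts, so counts of 0 or 1 of 16 are read as no result about the list. Those 5 contrasts held 0 or 1 gene of the list at an unadjusted p under 0.05. The median over the list with estradiol was 0.14 in T-47D, and it was -0.19 in ECC-1. The gene that rose was XBP1, a transcription factor gene of the unfolded protein response that is also a luminal breast gene, at 364 and 305 scaled RPKM in DMSO and 587 and 806 with estradiol (log2 difference 1.04, adjusted p = 0.000688). The XBP1 call ended in a fit on T-47D alone (adjusted p = 0.0565).

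Of the 16 hypoxia genes, 15 were tested, and with estradiol in T-47D 1 rose and 1 fell (median 0.33), where 3.22% of all genes were called. The glycolysis regulator gene PFKFB3 rose from 21.0 and 12.3 scaled RPKM to 47.5 and 56.8 (log2 difference 1.66, adjusted p = 0.000916), a call that ended with weighted libraries (adjusted p = 0.0597) and on T-47D alone (adjusted p = 0.0685). EPAS1, which encodes a hypoxia-inducible factor, fell from 81.9 and 94.3 to 48.0 and 43.1 (-0.94, adjusted p = 0.0016). With genistein or BPA 0 of the 15 passed against DMSO in either line, with 0 to 3 genes at an unadjusted limma p under 0.05. With estradiol in ECC-1 0 passed, with 1 at that level. These contrasts called 0% to 1.89% of all genes, so counts of 0 of 15 are read as no result about the list. PFKFB3 was higher with genistein than with BPA in T-47D (1.21, limma adjusted p = 0.0453), where 0.405% of all genes were called. That PFKFB3 call failed in 9 of 16 alternatives. Among these were the fits without either BPA library (1.28 and 1.14) or the first genistein library (0.82). Of the 15 genes of calcium entry and phosphate transport, 13 were tested. With estradiol 1 passed in each line (1.89% of all genes in ECC-1 and 3.22% in T-47D), with list medians of 0.12 (ECC-1) and -0.03 (T-47D). With genistein or BPA 0 passed in limma, with 0 to 2 at an unadjusted p under 0.05. Those contrasts called 0% to 0.969% of all genes, so 0 of 13 is read as no result about the list. The calcium channel gene ORAI3 fell in ECC-1 from 3.92 and 3.59 to 1.99 and 2.23 (-0.70, limma adjusted p = 0.0122). The ORAI3 call no longer passed without the first DMSO (-0.65), second DMSO (-0.76) or first estradiol library (-0.64) and failed in 5 of 16 alternatives. The phosphate transporter gene SLC20A1 rose in T-47D from 25.7 and 20.6 to 36.2 and 29.9 (0.51, adjusted p = 0.0476), which no longer passed without the second DMSO (0.35) or first estradiol library (0.37) and failed in 11 of 16 alternatives.

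Beside STC2, a panel of 6 estrogen-responsive genes (GREB1, PGR, TFF1, MYC, PDZK1, CXCL12) gives a reference for known estrogen targets in the same libraries. All 6 rose in T-47D with estradiol and with genistein, with median log2 differences of 2.19 and 1.60, beside 2.42 and 1.82 for STC2. Of all genes, 3.22% and 0.803% were called in these contrasts. Not all of these calls held. With genistein TFF1 failed in 6 of 15 alternatives, PDZK1 in 4 of 15, PGR in 3 of 16 and GREB1 in 1 of 16. The estradiol call on PGR failed in 2 of 16. With BPA in T-47D 0 of the 6 passed, where 0% of all genes did, and 4 had an unadjusted p under 0.05 in limma. The median was 0.42, beside 0.45 for STC2. In ECC-1, 3 of the 6 rose with estradiol, 2 with genistein and 0 with BPA. Of all genes, 1.89%, 0.969% and 0.195% were called there. Over 16 alternatives the ECC-1 estradiol calls failed in 6 for MYC, 4 for GREB1 and 0 for PGR. The ECC-1 genistein calls failed in 7 for PGR and 4 for MYC. The panel medians were 0.36, 0.38 and 0.18, beside 0.58, 0.55 and 0.31 for STC2. CXCL12 and TFF1 were listed at 0 in the DMSO, genistein and estradiol libraries of ECC-1, which holds these medians down. The genes that rose lay above STC2, with estradiol PGR (1.16), GREB1 (1.05) and MYC (0.71), and with genistein PGR (0.84) and MYC (0.78). PGR in ECC-1 DMSO (mean 0.071) lies below the added 0.5, which holds its log2 differences there down. TFF1 in T-47D DMSO (mean 0.196) does too, which holds down its differences and the panel median with genistein in T-47D. The panel was picked for known responses to estrogen, so its direction is not independent evidence. Of the 3 fibroblast markers that were tested, LUM fell with estradiol in T-47D, where STC2 stood highest, and the other 2 were not called. That contrast called 3.22% of all genes. LUM went from 1.13 and 1.11 to 0.558 and 0.644 scaled RPKM, and with genistein LUM stood at 0.673 and 0.741. The estradiol call on LUM no longer passed without either control or without estradiol library 1, and failed in 7 of 15 alternatives. COL1A1, the most abundant of these markers, stood at 18.1 and 18.4 in the T-47D controls and 30.5 and 15.5 with estradiol, and the part of these markers in the STC2 values was not tested.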

How the data were processed

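The authors deposited 1 table of RPKM values per library, 1 value for each RefSeq transcript, from non-directional libraries per the labels' protocols. Reads were aligned with Bowtie to hg19, per the submitters' processing notes, and the counting method was not stated there. In GENCODE annotation on GRCh38, exons of 0 other genes overlap those of STC1 or STC2.

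Libraries were scaled by median ratios to a geometric mean reference of 7547 genes that reached 5 RPKM everywhere (factors 0.938 to 1.054). The 13827 genes with at least 1 RPKM in 2 or more libraries, STC1 and STC2 among them, were tested on log2(scaled RPKM + 0.5), a scale on which folds of low genes are understated. One limma model (R 4.3.3, limma 3.58.1) with 8 group means, eBayes with trend and Benjamini-Hochberg adjustment over all genes was used at a threshold of 0.05. Ratios of means, likeness and depth were computed in Python 3.11.15 with pandas 2.3.3 and scipy 1.17.1. At the estimated depths, 62.0 to 65.1% of low values (under 10 reads) fell no further than 0.1 read from whole reads, against 20% by chance, and STC1 lay within 0.25 read in 14 of 16 libraries. Genes named beside STC1 and STC2 are list members past the threshold (up to 6 per list and contrast), PAPPA, PAPPA2 and IGFBP4, and the 5 genes of highest Pearson r with mean level 1 scaled RPKM or more and a log2 SD of at least 0.3, of which 1 is not reported here. The panel is summarised by its counts and medians, with values for the genes called in ECC-1. The genes, the lists and the tests were chosen with earlier results of these data known. Alternatives covered scaling, pseudocount, filter, choice of transcript, variance model, replicate numbers, library weights, 1 line alone and each library left out.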

Additional observations from a re-analysis of the deposited data

Results flagged for a closer look

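The tested differences between the lines in the response of STC1 did not pass, and those of STC2 were not tested. Of 14 pathway and panel genes that estradiol changed in at least 1 line, 7 responded differently in T-47D and ECC-1 by a limma test of the difference itself (adjusted p under 0.05), where 1.73% of all genes did. IGFBP3, IGFBP4, IRS1, ORAI3, PFKFB3, PGR and SLC20A1 did not pass. For IGFBP3, IGFBP4 and PGR this does not show like responses in the lines. In 1 line each lay near or below the added 0.5, which holds its log2 response there down. Mean PGR went with estradiol from 0.071 to 0.774 scaled RPKM in ECC-1 and from 63.4 to 137.8 in T-47D. Mean IGFBP3 went from 629 to 401 in ECC-1 and from 0.867 to 0.296 in T-47D. Mean IGFBP4 went from 0.480 to 1.16 in ECC-1 and from 89.1 to 224 in T-47D. Of 8 genes that genistein changed, 1 passed (0.586% of all genes). The genes were selected for a change in a line, which shares libraries with the difference. The values below are the log2 response in T-47D minus that in ECC-1. CXCL12 had 3.88 with estradiol and 3.51 with genistein, and TFF1 had 2.81 with estradiol. Both genes are listed at 0 in the DMSO, genistein and estradiol libraries of ECC-1. PDZK1 had 1.70 with estradiol, MYC 1.37 and GREB1 1.25. The GREB1 difference did not pass on leaving out any 1 of its libraries except the second estradiol library of either line, with values of 1.06 to 1.43. In all, the GREB1 difference failed in 13 of 19 alternatives. XBP1 had 1.12 with estradiol, and EPAS1 had -1.00. The EPAS1 difference did not pass without the first (-1.05) or second ECC-1 DMSO library (-0.94), the second T-47D DMSO library (-0.90) or the first ECC-1 estradiol library (-0.78). The XBP1 difference did not pass without the second T-47D DMSO library (0.99) or the first ECC-1 DMSO library (1.07). Over 19 alternatives the EPAS1 difference failed in 5 and the XBP1 difference in 4.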

How the results depend on the processing

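Of 268 alternative values for the tested comparisons of STC1 and STC2, 258 stayed on the same side of the threshold, 6 fell short of it, 4 came to pass it and 0 reversed a call. STC2 with estradiol in ECC-1 passed on 1 line alone (0.58), and with genistein in ECC-1 with array weights (0.55). Genistein against BPA for STC2 in T-47D did not pass on 1 line alone (1.37), and ran from 1.01 to 1.73 with each library left out. STC1 with estradiol in T-47D ran from 0.42 to 1.65 with each library left out and was 1.65 without both first estradiol libraries. STC1 between the lines ran from 0.54 to 1.30 with each DMSO library left out and from 0.59 to 1.74 with another pseudocount. The cause was not tested. Of 120 values of STC2 given as descriptions, 18 moved by more than 0.196, the SE of STC2 between 2 groups. All 18 came from leaving out a T-47D DMSO or BPA library. For the differences between lines, whose SE was 0.277, some of these shifts were smaller than that SE. Replicate numbers pair no libraries by the labels (correlations of deviations -0.22 to 0.41), and with a replicate block STC2 between genistein and BPA in T-47D stayed at 1.37 (adjusted p = 0.00836) and STC1 between the lines at 0.92 (adjusted p = 0.0469), so no call on either gene changed, while the fall of IGFBP3 with estradiol in ECC-1 no longer passed (adjusted p = 0.0503). Of 704 values for list genes, 147 lost their call. The 704 include 16 values for IGFBP4 with BPA in ECC-1 and 16 in T-47D, which had no call to lose. Counts of called genes ran from 110 to 2162 (ECC-1) and 92 to 3131 (T-47D) for estradiol, 59 to 841 and 13 to 266 for genistein, 9 to 68 and 0 to 3 for BPA, 0 to 52 and 0 to 103 for genistein against BPA. For the differences between lines they ran from 60 to 2214 (estradiol), 46 to 205 (genistein) and 1 to 23 (BPA). STC1 had no value when the mean had to reach 5 RPKM, and depth limits it in ECC-1.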
